A study of Mus musculus with 4 samples.

Results

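Glutamate receptors and the scaffold proteins that anchor them were followed in RNA-seq of embryonic mouse cortex with and without a knockout of the histone variant H2A.Z.2. The genes were chosen by name and biotype only: protein-coding genes listed in the deposited tables as AMPA (Gria), kainate (Grik), delta (Grid), NMDA (Grin) or metabotropic (Grm) glutamate receptors, or as Dlg1 to Dlg4, Shank or Homer scaffolds. The rule found 36 genes of the 22619 genes listed in either table. Of these, 35 were listed in both tables and passed the filter on low counts, and Grm6, the receptor of retinal bipolar cells, was listed in 1 table with 1 read in each of its libraries and was not tested.

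Glutamate is the main excitatory transmitter of the cortex. AMPA, kainate and NMDA receptors are cation channels built from subunits, and metabotropic receptors signal through G proteins. At the excitatory synapse Dlg proteins bind the tails of the channels, Shank proteins form the deeper layer of the postsynaptic density, and Homer proteins tie Shank to group I metabotropic receptors. In the embryonic cortex most of these synapses have not yet formed, but many receptor genes are already transcribed in young neurons.

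Cortex was taken at E16.5, late in embryonic neurogenesis, from C57BL/6 mice that were wild type (replicates 1 and 4) or carried a knockout of H2A.Z.2, which the study calls conditional (cKO, replicates 1 and 2). The tissue label reads brain, and neither the Cre driver nor the deleted exons are given in the labels. The labels do not say that libraries came from separate embryos, so p-values measure only the spread between these 4 libraries, which may be technical. The study as a whole concerns the effect of neural progenitors on microglia, and glutamate receptors are not its stated subject.

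The libraries held 16625181 to 17940659 reads and 21027 to 21219 detected genes. CPM below are counts scaled to library size with edgeR's TMM factors. H2afv, which encodes H2A.Z.2, reached 136 CPM (wild type replicate 1) and 222 CPM (replicate 4), against 128 and 127 CPM in the cKO libraries (log2 fold change -0.49, SE 0.23, edgeR adjusted p = 0.956). The cKO libraries were thus close to wild type replicate 1 in the targeted gene. These counts include any exons outside a deletion, and cKO here means what a library is labelled. An outlying library was wild type replicate 4, at 43.0 on a first principal component that held 67.9% of the variance, with the others between -19.7 and -9.57. In the same library Gm23935, CT010467.1 and Lars2, loci that collect ribosomal RNA reads, took 0.383% of reads, against 0.0346% to 0.0480% in the other 3, and the part of this in the results was not tested. Neuronal and progenitor markers of cortex were present in every library. Choroid plexus markers summed to 512 CPM in cKO replicate 1 and to 17.7 to 60.0 CPM elsewhere, and markers of striatal neurons to 296 CPM in wild type replicate 4 and 327 to 370 CPM elsewhere. In bulk tissue fewer cells of a type and less RNA per cell cannot be told apart.

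No glutamate receptor or scaffold gene passed 5% FDR between cKO and wild type. With edgeR's quasi-likelihood test 0 of 35 were called, against 0% of all 16269 genes tested. Most of the family nevertheless lay on the higher side: 26 of 35 had a log2 fold change above 0 (cKO over wild type), against 48.1% of all genes tested, and their median was 0.25 against -0.01 over all genes. The gene with the smallest p was Shank1, followed by Grm2 and Grik5, which were the 3 with an unadjusted p below 0.05, all higher in cKO, while 0 were lower. Over all genes tested 0.676% were higher and 0.996% were lower at that threshold. DESeq2 called 0 of 35 at 5% FDR (0% of all genes tested) and had Grm2 and Shank1 at an unadjusted p below 0.05 (2.32% of all genes tested).

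**Figure D1:**
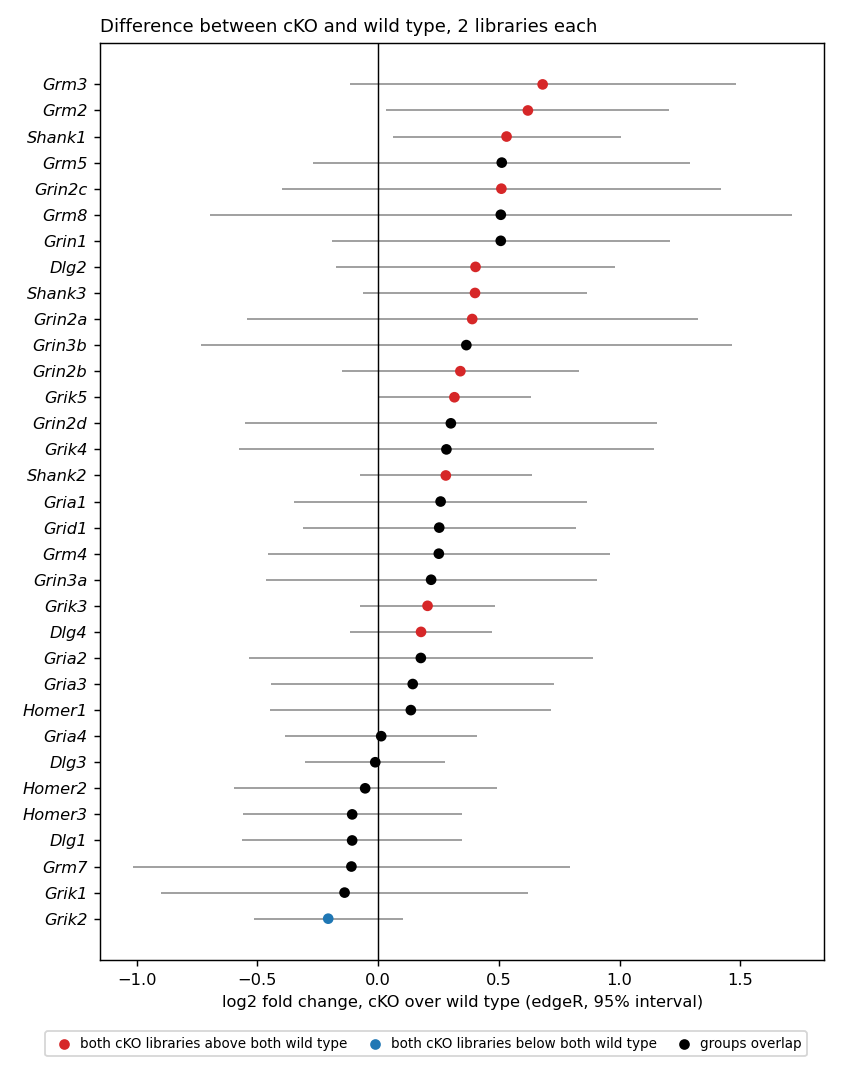
Log2 fold change of 33 of the 35 genes tested, cKO over wild type, as points with 95% confidence intervals from edgeR (2 libraries in each group). Red points mark the 12 genes with both cKO libraries above both wild-type libraries, the blue point marks Grik2, with both below, and the intervals of all but Shank1, Grm2 and Grik5 include 0.

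The 2 groups did not overlap in 13 of the 35 genes, against 31.6% of all genes tested. Both cKO libraries were above both wild-type libraries in 12 of them (16% of all genes tested), and both were below in 1, Grik2 (15.7% of all genes tested). The 12 were Grik3, Grik5, Grin2a, Grin2b, Grin2c, Grm2, Grm3, Dlg2, Dlg4 and the 3 Shank genes. No AMPA, delta or Homer gene was among them. Wild type replicate 4 was the lowest library for 21 of 35 genes (36.3% of all genes tested) and the highest for 2, Homer2 and Homer3 (37.6%). The library labelled cKO replicate 1 was the highest for 17 (22.7%).

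The 4 AMPA receptor genes encode the channels that carry most fast excitation, and the sequences below show the stretch of coding exon around the codon for the glutamine (Q/R) site in the pore. They are shown because RNA editing at this codon sets Gria2 apart. In neurons the Gria2 transcript is edited at this codon to encode arginine, which makes the channel poorly permeable to calcium. Gene counts do not measure that editing. The capitals mark the codon, and the bases are those of GRCm38 in the direction of the transcript, 48 for each gene.
Gria1, chr11:57243070-57243117, plus strand, exon 11: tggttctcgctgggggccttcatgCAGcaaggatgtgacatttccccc
Gria2, chr3:80706890-80706937, minus strand, exon 11: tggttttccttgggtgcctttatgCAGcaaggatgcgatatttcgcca
Gria3, chrX:41610241-41610288, plus strand, exon 11: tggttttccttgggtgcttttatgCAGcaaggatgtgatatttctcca
Gria4, chr9:4464116-4464163, minus strand, exon 12: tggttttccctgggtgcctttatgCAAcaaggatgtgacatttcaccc
Gria1, Gria2 and Gria3 share the codon CAG and Gria4 has CAA, which also encodes glutamine. Over this stretch Gria3 was 93.8% identical to Gria2, Gria4 87.5% and Gria1 81.2%.

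All 4 AMPA genes were detected in every library and none separated cKO from wild type. Gria1 gave 203 and 119 CPM for wild type (replicates 1 and 4, in this order throughout) versus 206 and 179 CPM for cKO (replicates 1 and 2). Replicate 4 of wild type was low and the other 3 libraries lay together, with a log2 fold change of 0.26 (SE 0.25, edgeR adjusted p = 0.956). Gria2 gave 370 and 277 CPM for wild type versus 258 and 473 CPM for cKO. Here the 2 cKO libraries were the lowest and the highest of the 4, and the difference between them exceeded that between the groups (log2 fold change 0.18, SE 0.29). Gria3 was also highest in cKO replicate 2, with 33.8 and 26.1 CPM for wild type versus 26.7 and 39.5 CPM for cKO. Gria4 reached 53.1 and 42.3 CPM across wild type, compared with 48.5 and 47.8 CPM across cKO, so that both cKO libraries lay between the wild-type ones.

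The kainate receptors gave the highest level per length and the one gene whose cKO libraries were both below wild type. Grik5, which encodes the high-affinity subunit GluK5 that works only together with another subunit, is on chromosome 7 (25009849 to 25072346, minus strand, GRCm38, ENSMUSG00000003378). It was counted at 301 and 257 CPM in wild-type cortex, with 346 and 350 CPM in cKO cortex. Both cKO libraries were above both wild-type libraries, with means of 279 ± 30.7 CPM and 348 ± 2.75 CPM (SD, n = 2 each) and a log2 fold change of 0.32 (SE 0.13, unadjusted p = 0.0497 and adjusted p = 0.956 in edgeR). The cKO libraries exceeded replicate 1 of wild type, the nearer one, by 0.20 and 0.22 on the log2 scale. Grik3, a channel subunit of low glutamate affinity, stood at 223 and 233 CPM in the wild-type libraries against 267 and 259 CPM in the cKO libraries, with no overlap (log2 fold change 0.20).

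Grik2, whose product GluK2 forms channels alone or with GluK5, went the other way. It gave 74.2 and 71.3 CPM for wild type versus 64.7 and 61.4 CPM for cKO. Both cKO libraries were lower, by 0.21 on the log2 scale (SE 0.13, log2 fold change -0.21, edgeR adjusted p = 0.956). Grik1 reached 29.7 and 15.5 CPM across wild type, compared with 21.7 and 19.3 CPM across cKO, and Grik4, the other high-affinity subunit gene, 11.0 and 6.74 CPM for wild type versus 13.3 and 8.22 CPM for cKO. For both of these the groups overlapped.

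Grid1, a delta receptor gene whose product binds cerebellins at the synapse, was counted at 24.7 and 20.0 CPM in wild-type cortex, with 31.4 and 21.9 CPM in cKO cortex. The groups overlapped.

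All 7 NMDA receptor genes had a log2 fold change above 0, with a median of 0.37, and 0 passed 5% FDR. Grin1 encodes GluN1, the subunit every NMDA receptor contains, and gave 40.3 and 22.8 CPM for wild type versus 50.5 and 39.1 CPM for cKO. The lowest value was that of wild type replicate 4, replicate 1 lay between the 2 cKO libraries, and the log2 fold change was 0.51 (SE 0.29, edgeR adjusted p = 0.956). Grin2b, which encodes the GluN2B subunit of immature cortex, reached 137 and 90.6 CPM across wild type, compared with 143 and 145 CPM across cKO. Its groups did not overlap, but wild type replicate 1 was within 0.09 of both cKO libraries on the log2 scale, with a log2 fold change of 0.34 (SE 0.20) over the groups.

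The other GluN2 genes had lower means per length, at 2.88 RPKM for Grin2d, 0.491 for Grin2c and 0.109 for Grin2a against 5.18 for Grin2b (reads per kilobase of exon, scaled to library size, mean of 4 libraries). Grin2d, the gene of another subunit of the young brain, was counted at 19.6 and 14.7 CPM in wild-type cortex, with 28.3 and 14.0 CPM in cKO cortex. The 2 cKO libraries were again the extremes. Grin2a, the subunit gene that gains ground after birth, stood at 1.67 and 1.71 CPM in the wild-type libraries against 2.57 and 1.87 CPM in the cKO libraries, from 29 to 46 reads. Grin2c, best known from the cerebellum, gave 2.42 and 1.66 CPM for wild type versus 3.08 and 2.74 CPM for cKO, from 28 to 55 reads. Neither of these 2 overlapped between groups, and their log2 fold changes of 0.39 and 0.51 had SEs of 0.39 and 0.38. Of the GluN3 genes, whose products bind glycine, Grin3a reached 23.0 and 15.2 CPM across wild type, compared with 26.3 and 18.1 CPM across cKO, and Grin3b 2.08 and 1.06 CPM for wild type versus 2.01 and 2.04 CPM for cKO. The groups overlapped in both.

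The metabotropic receptors held the 2 largest fold changes of the family, in the group II genes Grm2 and Grm3, whose receptors lower cyclic AMP. Grm2 (chromosome 9, 106643095 to 106656082, minus strand, GRCm38, ENSMUSG00000023192) was counted at 20.7 and 13.6 CPM in wild-type cortex, with 25.2 and 27.6 CPM in cKO cortex. Both cKO libraries were higher, with means of 17.2 ± 5.03 CPM in wild type and 26.4 ± 1.71 CPM in cKO (SD, n = 2 each) and a log2 fold change of 0.62 (SE 0.24, unadjusted p = 0.041 and adjusted p = 0.956 in edgeR). Grm3 (chromosome 5, 9485541 to 9725170, minus strand) stood at 4.15 and 2.78 CPM in the wild-type libraries against 5.70 and 5.42 CPM in the cKO libraries, again without overlap (log2 fold change 0.68, SE 0.33, adjusted p = 0.956 in edgeR). Its values rested on 47 to 102 reads per library. The log2 differences of cKO replicates 1 and 2 from the nearer wild-type library, replicate 1, were 0.28 and 0.41 for Grm2 and 0.46 and 0.39 for Grm3.

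Grm5, a group I receptor gene whose product releases calcium through phospholipase C, overlapped between groups. It gave 41.4 and 21.9 CPM for wild type versus 37.7 and 52.6 CPM for cKO, with a log2 fold change of 0.51 (SE 0.32). As for Grin1, wild type replicate 4 was low and replicate 1 lay between the cKO libraries. Among the group III genes, presynaptic receptors that also lower cyclic AMP, Grm4 was counted at 18.1 and 16.1 CPM in wild-type cortex, with 26.0 and 14.8 CPM in cKO cortex. Grm7 stood at 7.67 and 4.91 CPM in the wild-type libraries against 7.21 and 4.43 CPM in the cKO libraries, and Grm8 0.981 and 1.66 CPM for wild type versus 2.40 and 1.34 CPM for cKO. All 3 overlapped between groups.

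Promoter sequence in the RefSeq table (build GRCm38.p6) was matched for 23 of the 36 genes. The 150 bases before the start are shown for Grm2 and Grik5, 2 of the 3 genes with the smallest p, and for Grin1, the one of these genes with the largest value in the authors' deposited table that pairs cKO replicate 1 with wild type replicate 4. No promoter of Shank1 was matched. Capitals mark the GC box GGGCGG, searched on both strands (as GGGCGG or CCGCCC), which in these 3 occurs on the printed strand only.
Grm2, chr9:106656110-106656259, minus strand: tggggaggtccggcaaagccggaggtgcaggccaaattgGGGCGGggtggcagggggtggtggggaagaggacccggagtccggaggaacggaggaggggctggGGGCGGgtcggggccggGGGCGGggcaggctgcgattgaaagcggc
Grik5, chr7:25072370-25072519, minus strand: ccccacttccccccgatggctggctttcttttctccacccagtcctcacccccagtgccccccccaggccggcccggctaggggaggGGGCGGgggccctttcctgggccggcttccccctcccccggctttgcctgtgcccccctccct
Grin1, chr2:25319188-25319337, minus strand: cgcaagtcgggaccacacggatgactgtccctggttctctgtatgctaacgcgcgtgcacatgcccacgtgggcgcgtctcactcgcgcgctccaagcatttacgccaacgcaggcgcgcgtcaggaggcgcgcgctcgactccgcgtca
The stretch held 3 GC boxes in Grm2, 1 in Grik5 and 0 in Grin1, with 12, 6 and 23 CpG dinucleotides. Within the same 150 bases before each start a GC box was found in 14 of the 36 promoters listed for these 23 genes, or 38.9%. It was found in 28.6% of all 32851 promoters. A match is a description of the letters and not a site of binding, and no binding was measured here.

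The Dlg scaffolds are membrane-associated guanylate kinases that hold receptors at the membrane, and their genes split evenly. Dlg4, which encodes the main postsynaptic density scaffold PSD-95, gave 470 and 426 CPM for wild type versus 513 and 500 CPM for cKO. Both cKO libraries were higher by a small amount (log2 fold change 0.18, SE 0.12, edgeR adjusted p = 0.956). Dlg2, the gene of PSD-93, reached 133 and 79.4 CPM across wild type, compared with 138 and 143 CPM across cKO, where wild type replicate 4 stood below the other 3 (log2 fold change 0.40, SE 0.24). Dlg3 varied little, with 109 and 103 CPM for wild type versus 104 and 107 CPM for cKO, and its log2 fold change had a 95% interval of -0.30 to 0.28. Dlg1, the gene of SAP97, was counted at 45.3 and 49.0 CPM in wild-type cortex, with 37.1 and 50.5 CPM in cKO cortex.

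The 3 Shank genes were all higher in both cKO libraries than in both wild-type libraries. Shank1 (chromosome 7, 44310253 to 44360572, plus strand, GRCm38, ENSMUSG00000038738) stood at 484 and 330 CPM in the wild-type libraries against 610 and 567 CPM in the cKO libraries. The means were 407 ± 109 CPM and 588 ± 30.1 CPM (SD, n = 2 each), with a log2 fold change of 0.53 (SE 0.20, 95% interval 0.06 to 1.00, unadjusted p = 0.0327 and adjusted p = 0.956 in edgeR). On the log2 scale the cKO libraries exceeded wild type replicate 1 by 0.33 and 0.23, and wild type replicate 4 lay well below it. Shank3, a gene linked to autism in humans, gave 88.0 and 69.0 CPM for wild type versus 118 and 89.4 CPM for cKO (log2 fold change 0.40, SE 0.19, edgeR adjusted p = 0.956). Shank2 reached 81.2 and 73.5 CPM across wild type, compared with 103 and 85.4 CPM across cKO (log2 fold change 0.28, SE 0.15). In both of these cKO replicate 2 was close to wild type replicate 1, at 0.02 and 0.07 on the log2 scale.

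The Homer genes showed no common direction. Homer3 was counted at 34.8 and 44.7 CPM in wild-type cortex, with 39.9 and 33.9 CPM in cKO cortex (log2 fold change -0.11, SE 0.19, edgeR adjusted p = 0.965). Homer2 stood at 18.3 and 26.4 CPM in the wild-type libraries against 21.0 and 22.0 CPM in the cKO libraries, with the highest value in wild type replicate 4. Homer1, which makes both a long scaffold form and a short activity-induced form that gene counts do not separate, gave 43.7 and 41.1 CPM for wild type versus 35.6 and 57.6 CPM for cKO. Its cKO libraries were the lowest and the highest of the 4.

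Levels of different genes were compared per kilobase of annotated exon (RPKM, mean of the 4 libraries). Grik5 was highest at 60.6, followed by Shank1 at 47.3, Dlg4 at 36.0, Gria1 at 29.2, Grik3 at 27.4, Gria2 at 22.2 and Dlg3 at 18.1. The ranges over libraries of each neighbouring pair in this order overlapped. Read within each library, Grik5 was nevertheless above Shank1 throughout. The values were 58.2 against 46.0 and 49.8 against 31.4 in wild type, and 66.9 against 58.0 and 67.6 against 53.9 in cKO. Dlg4 was likewise above Gria1 in every library. The order within the other neighbouring pairs changed between libraries. The next gene, Homer3 at 11.1, was below Dlg3 in every library. Further gaps without overlap lay below Grin2d at 2.88, Grin2c at 0.491 and Grin2a at 0.109. Grin2a was the lowest gene tested and Grm6 was below it at 0.00535. The order depended on the length used: per kilobase of the longest transcript Gria2 was at 33.2 and Gria1 at 31.8.

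**Figure D2:**
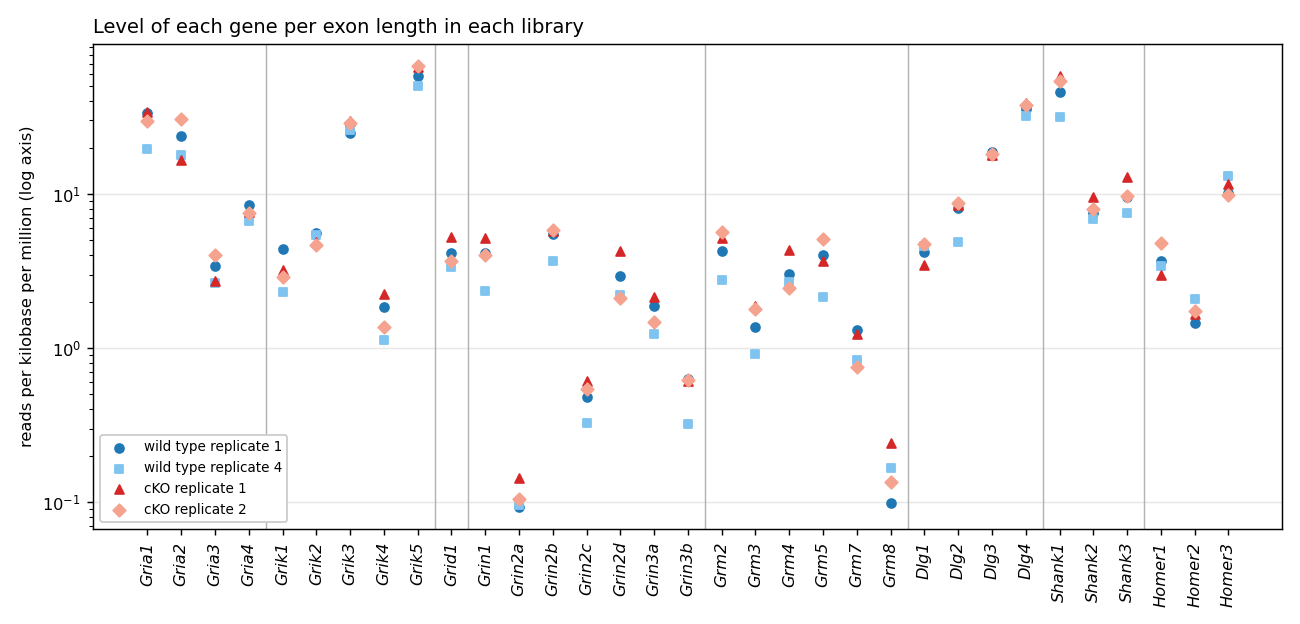
RPKM (reads scaled to library size, per kilobase of annotated exon, log axis) of 33 of the 35 genes tested in each of the 4 libraries, with a symbol for each library and vertical lines between families. Grik5, Shank1 and Dlg4 are highest, Grin2a and Grm8 lowest, and the pale blue squares of wild type replicate 4 lie lowest in 21 genes.

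The make-up of each receptor or scaffold family was described as the share of each gene in the summed reads per kilobase of its family, a ratio that does not depend on scaling between libraries. Gria1 made up 48.5% and 42.0% of AMPA reads in wild type and 55.8% and 41.3% in cKO, and Gria2 34.4% and 38.1% in wild type and 27.2% and 42.5% in cKO. The 2 cKO libraries were the lowest and the highest of the 4 in both. Which of these genes led depended on the length used: per kilobase of the longest transcript the mean share was 39.9% for Gria1 and 41.3% for Gria2. Grin2b made up 61.0% and 58.0% of the GluN2 genes in wild type and 53.4% and 68.0% in cKO, and Grin2d 32.6% and 35.2% in wild type and 39.6% and 24.4% in cKO. Again the cKO libraries lay at either end.

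Grik5 made up 61.3% and 58.9% of kainate reads in wild type and 62.5% and 64.2% in cKO. This was higher in both cKO libraries, by 3.25 percentage points (exact permutation p = 0.333, two-sided). The difference was 2.02 points without wild type replicate 4 and 4.48 points without wild type replicate 1. The share of Grik2 was lower in both, at 5.90% and 6.36% in wild type and 4.56% and 4.40% in cKO (exact permutation p = 0.333). Shank1 made up 72.9% and 68.6% of Shank reads in wild type and 72.2% and 75.3% in cKO, which overlapped. Dlg4 made up 53.3% and 54.2% of Dlg reads in wild type and 56.6% and 54.3% in cKO, with a margin between groups smaller than the spread within cKO. Homer3 made up 66.5% and 70.2% of Homer reads in wild type and 71.5% and 60.0% in cKO. The shares of Grin2c and Dlg2 were also higher in both cKO libraries, and those of Dlg3 and Shank2 lower in both. Each of these had the same exact permutation p of 0.333, so a separation was not particular to the kainate genes. Over the 25 shares compared no p could fall below 0.333, the smallest that 2 libraries against 2 allow, so no share could pass a test.

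**Figure D3:**
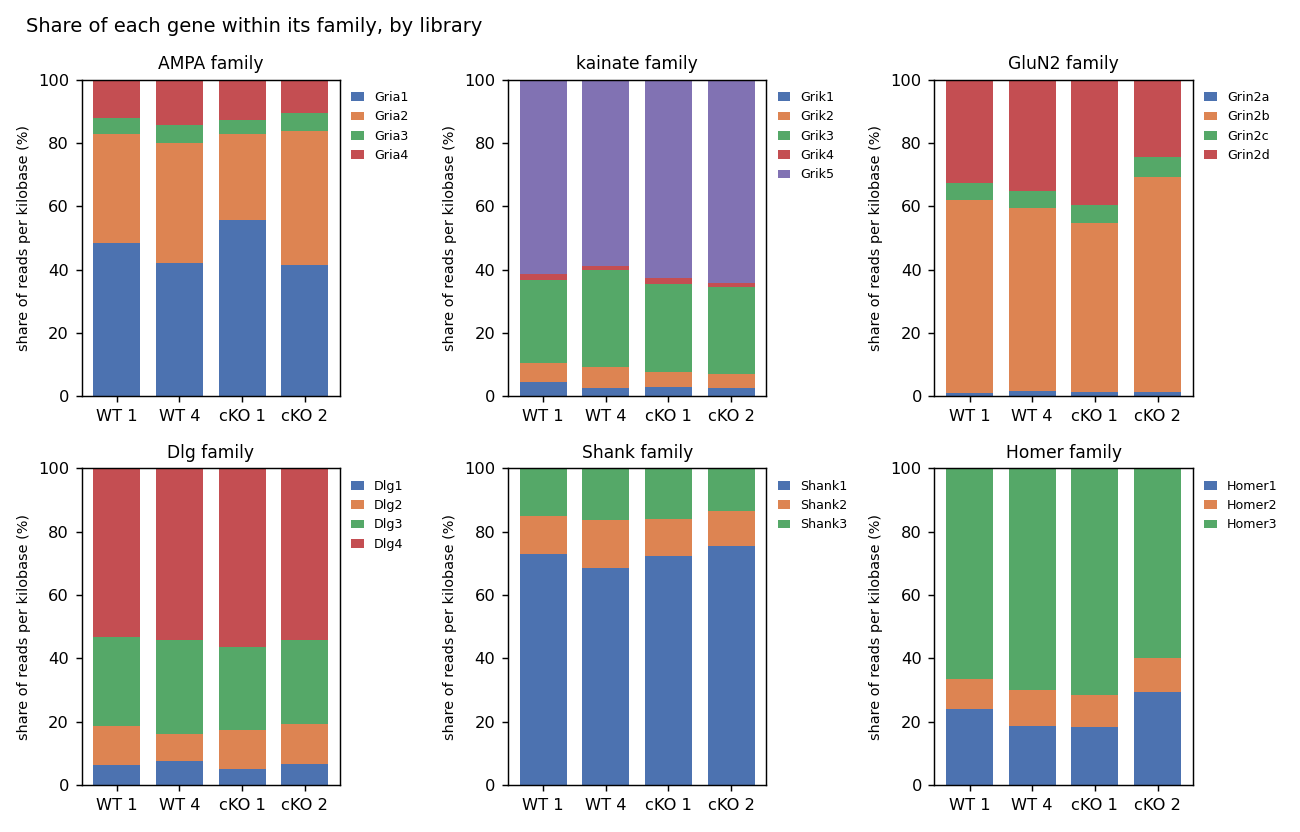
Share of each gene in the summed reads per kilobase of its family (percent, bars stacked to 100) for 6 families in wild type replicates 1 and 4 and cKO replicates 1 and 2. Grik5, Shank1, Dlg4 and Homer3 hold the largest share of their families in every library, while Gria1 and Gria2 exchange the lead between the 2 cKO libraries.

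The difference between groups was smaller without wild type replicate 4 and larger without wild type replicate 1. Relative to each gene's mean over the 4 libraries, the median of the 35 genes was 0.05 in wild type replicate 1, -0.27 in wild type replicate 4, 0.21 in cKO replicate 1 and 0.02 in cKO replicate 2 (log2 CPM). It was negative in wild type replicate 4 only. Without replicate 4, 0 of 35 were called (edgeR, 0% of all genes tested), 21 of 35 had a log2 fold change above 0 (50.5% of all genes tested) and the median was 0.10. Without wild type replicate 1, so that both cKO libraries were set against replicate 4 alone, 9 genes passed 5% FDR, all higher in cKO: Dlg2, Gria1, Grik5, Grin1, Grin2b, Grm2, Grm5, Shank1 and Shank3. Over all genes tested in that fit 5.34% were higher and 5.59% were lower, and 0 of the 35 were lower.

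Per gene the contrast between these fits was wide for some and narrow for others. Grm5 had a log2 fold change of 1.05 without wild type replicate 1 (SE 0.21, edgeR adjusted p = 0.00844) and of 0.13 without replicate 4 (SE 0.19, adjusted p = 1.00). For Dlg2 the values were 0.83 (SE 0.13) and 0.09 (SE 0.13), and for Gria1 0.70 (SE 0.14) and -0.07 (SE 0.13). In cKO these 3 thus lay above wild type replicate 4 alone and, on average, near wild type replicate 1 alone. Shank1 had 0.84 (SE 0.12, edgeR adjusted p = 0.00106) and 0.29 (SE 0.11, adjusted p = 1.00), Grm2 0.96 (SE 0.21) and 0.35 (SE 0.20), and Grik5 0.44 (SE 0.12) and 0.21 (SE 0.12). With each of the 4 libraries left out in turn 15 genes had a positive value in every fit, 1 (Grik2) a negative value in every fit, and 19 changed sign. The groups did not overlap in 26 of the 35 genes without wild type replicate 1 (80.6% of all genes tested), in 21 without wild type replicate 4 (59.3%), in 24 without cKO replicate 1 (62.4%) and in 25 without cKO replicate 2 (61.0%). In each such fit the group of 1 library has no spread of its own and is assumed to vary like the other group.

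Markers of several cell types stood apart in the same library, in both directions. Summed over 12 markers of postmitotic neurons, the level was 9327 and 7339 CPM for wild type versus 9442 and 10718 CPM for cKO, and 12 markers of dividing cells summed to 720 and 1456 CPM for wild type versus 714 and 619 CPM for cKO. Wild type replicate 4 was lowest in the first list and highest in the second, as it was in the list of intermediate progenitors (583 and 894 CPM for wild type, 537 and 526 CPM in cKO). In cKO, 11 of 12 neuron markers had higher values and 12 of 12 markers of dividing cells lower ones. No marker of these lists passed 5% FDR and none was at 0 in any library. Not all neuron lists were lowest in wild type replicate 4. Upper-layer markers were, at 1271 and 1183 CPM for wild type versus 1281 and 1573 CPM for cKO. Deep-layer markers were not, at 1156 and 1196 CPM for wild type versus 1048 and 1369 CPM for cKO. Relative to the mean of the 4 libraries, the median marker in wild type replicate 4 was at -0.02 for deep-layer neurons, -0.18 for upper-layer neurons and 0.15 for Cajal-Retzius cells (log2 CPM). Markers of interneurons and the ganglionic eminence were highest there, at 1523 CPM against 925 to 1372 CPM, with a median of 0.29. Striatal markers were lowest there, with a median of -0.61, a larger drop than the -0.34 of the postmitotic neuron list. Thalamus and hypothalamus markers summed to 68.2 CPM there and to 13.8 to 34.2 CPM elsewhere. Scaled to the median of the postmitotic neuron markers, an alternative chosen after seeing the data, the median of the 35 genes was -0.01 and that of the 16245 genes above 0 in every library was -0.24, with 17 of the 35 higher in cKO (18.7% of all genes tested) and 18 lower. Of the 35, 6 had both cKO libraries above both wild-type libraries (4.68% of all genes tested) and 4 had both below (28.1%). Under this scaling the log2 difference was 0.48 for Grm3, 0.42 for Grm2, 0.33 for Grm5, 0.32 for Shank1, 0.32 for Grin1, 0.09 for Grik5 and -0.44 for Grik2. Also among the 18 lower genes were Dlg1 (-0.36), Grm7 (-0.35), Homer3 (-0.34) and Grik1 (-0.30). The part of these markers in the results was not tested beyond this scaling.

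**Figure D4:**
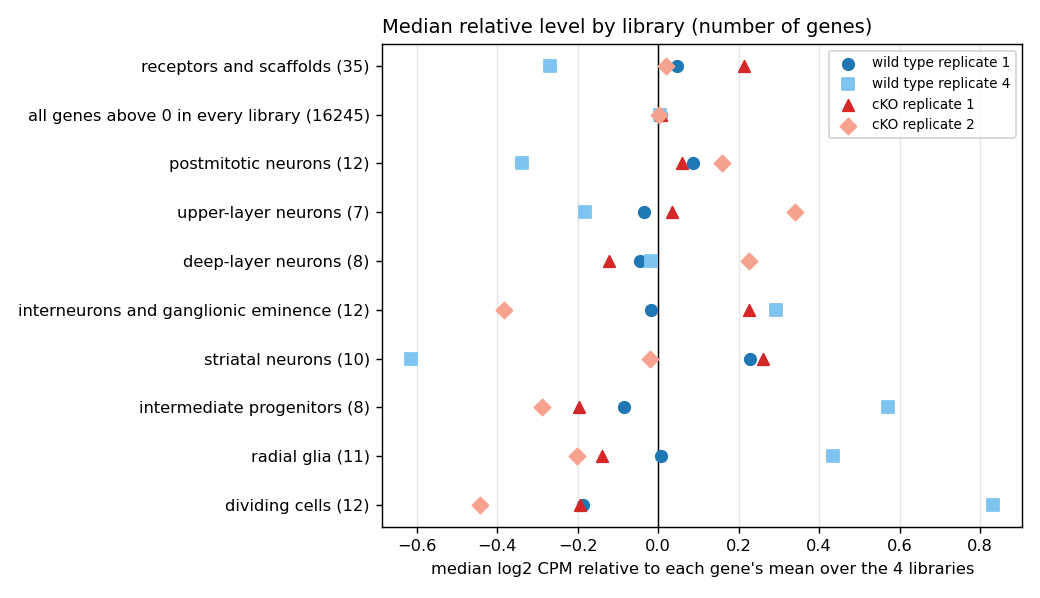
Median log2 CPM of each gene list relative to each gene's mean over the 4 libraries (x axis), for the 35 receptor and scaffold genes, for all 16245 genes tested that were above 0 in every library, and for 8 marker lists, with the number of genes in brackets. Wild type replicate 4 lies at -0.27 for the receptor and scaffold genes, at -0.34 for postmitotic neurons and at 0.83 for dividing cells.

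These genes also differed more between the cKO libraries than most genes did. The median absolute log2 difference between cKO replicates 2 and 1 was 0.264 over the 35 genes and 0.182 over all genes, and that between the wild-type libraries was 0.414 and 0.303. Gria2 was the gene most in favour of cKO replicate 2, by 0.88, and Grin2d the gene most in favour of cKO replicate 1, with a log2 difference of -1.02. The transcript of Gria2 has 36.8% GC, the lowest of the 35, and that of Grin2d has 65.0% GC, the highest. Across the 35 genes the difference ran with GC content at Pearson's r = -0.45 and Spearman's rho = -0.43, and across 13854 protein-coding genes at r = -0.23 and rho = -0.31. These are descriptions across genes that share the same 2 libraries and are not independent replicates. Values of cKO replicate 1 over wild type replicate 1 ran with GC content at r = 0.42 over the 35 genes and over wild type replicate 4 at r = 0.53. Across protein-coding genes these were 0.26 and 0.33. In all 3 of these pairs, which share cKO replicate 1, the difference leaned towards that library as GC content rose. In the pairs without it, r over the 35 genes was -0.20 for wild type replicate 4 over replicate 1. For cKO replicate 2 it was -0.15 over wild type replicate 1 and 0.06 over wild type replicate 4. Over protein-coding genes r in these pairs was -0.17, -0.01 and 0.15, in the same order, and rho was -0.23, 0.01 and 0.21. Wild type replicate 4 thus leaned towards low GC content over protein-coding genes in both of these pairs that hold it. The fold change between the groups ran with GC content at r = 0.35 and rho = 0.33 over the 35 genes and at r = 0.27 and rho = 0.36 over 13861 protein-coding genes. The part of GC content in the results was not tested beyond these values.

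**Figure D5:**
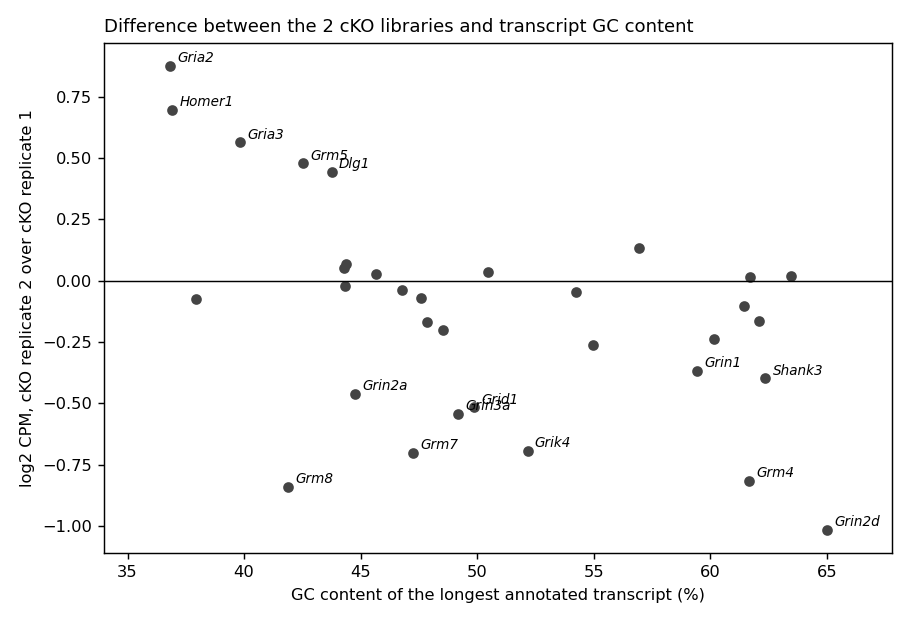
Log2 difference in CPM between cKO replicate 2 and cKO replicate 1 (y axis) against the GC content of the longest annotated transcript (x axis, percent) for 33 of the 35 genes, with names for those beyond 0.35 in either direction. Gria2, Homer1 and Gria3, at the low end of GC content, are higher in cKO replicate 2, and Grin2d and Grm4, at the high end, are higher in cKO replicate 1, while Grm8 (41.9% GC, -0.84) and Grin3b (63.4% GC, 0.02) lie off this trend.

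The receptor and scaffold genes are long. Their median span on the genome was 223 kb against 25.1 kb over protein-coding genes tested. Their longest transcripts had a median length of 5720 bases against 3490, and a median GC content of 48.3% against 50.0%.

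Genes that work with these receptors were read from lists made for the same pathway. Of all genes tested, 48.1% had a log2 fold change above 0, the share to set beside the counts of each list. Of 18 auxiliary subunits of AMPA receptors, 14 were higher in cKO and 4 were lower. Their median log2 fold change was 0.26, with 0 past 5% FDR in edgeR. Cnih2, a cornichon protein that slows the closing of AMPA channels, reached 301 and 245 CPM across wild type, compared with 358 and 348 CPM across cKO (log2 fold change 0.37, SE 0.14, edgeR adjusted p = 0.956). Cacng8, the stargazin relative TARP gamma-8, was counted at 27.5 and 25.8 CPM in wild-type cortex, with 38.2 and 32.0 CPM in cKO cortex. In both genes the cKO libraries were above wild type, as they were in 7 of the 18 (16% of all genes tested), and both were below in 2 of the 18 (15.7%). Wild type replicate 4 was lowest in 13 of the 18 (36.3% of all genes tested). Of the other genes named by p or level, Shisa9 had a log2 fold change of 0.53 (SE 0.27) and Cacng4 one of 0.24 (SE 0.15).

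The other lists showed smaller medians and likewise 0 genes past 5% FDR. In the order below, both cKO libraries were above both wild-type libraries in 1 of 10, 8 of 39, 6 of 15 and 1 of 17 genes (16% of all genes tested). Both were below in 1, 4, 3 and 3 (15.7%). Wild type replicate 4 was lowest in 6, 22, 10 and 9 (36.3%). Of 10 tested partners of kainate and delta receptors 7 were higher and 3 lower (median 0.17). The partner with the smallest p was on the lower side: Nrxn3, a presynaptic neurexin, reached 67.8 and 58.4 CPM across wild type, compared with 57.0 and 49.4 CPM across cKO, without overlap (log2 fold change -0.25, SE 0.15, edgeR adjusted p = 0.956). Nrxn2 and Neto2 had log2 fold changes of 0.21 and 0.32. Of 39 enzymes and adaptors of the postsynaptic density 24 were higher and 15 lower (median 0.11). Dlgap4, a link between Dlg and Shank proteins, gave 709 and 524 CPM for wild type versus 738 and 794 CPM for cKO. It was higher in both cKO libraries, with a log2 fold change of 0.31 (SE 0.17, edgeR adjusted p = 0.956). Magi1, a scaffold of the same guanylate kinase family as Dlg, went the other way, from 109 and 138 CPM in the wild-type libraries to 105 and 93.9 CPM in the cKO libraries, without overlap (log2 fold change -0.31, SE 0.16, edgeR adjusted p = 0.956). Begain and Sptan1 had log2 fold changes of 0.37 and 0.11. Of 15 genes of group I metabotropic signalling 10 were higher and 5 lower (median 0.17). Itpr1, the calcium release channel of that pathway, gave 35.5 and 21.4 CPM for wild type versus 35.2 and 50.8 CPM for cKO, with its lowest value in wild type replicate 4, as for Grm5. Ncdn and Gprasp1 had log2 fold changes of 0.37 and -0.11. Of 17 genes of glutamate loading, uptake and metabolism, which act outside the postsynaptic site, 8 were higher and 9 lower (median -0.03). Slc1a5, a transporter of neutral amino acids such as glutamine, was at 15.0 and 21.0 CPM for wild type and at 13.5 and 12.2 CPM for cKO, lower in both cKO libraries (log2 fold change -0.49, SE 0.24, edgeR adjusted p = 0.956). Slc38a2, Slc1a6 and Slc38a1 had log2 fold changes of -0.26, 0.51 and -0.05.

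The authors' deposited tables set 1 cKO library against 1 wild-type library each and share no library. In the authors' deposited table that pairs cKO replicate 1 with wild type replicate 4, 28 of 35 genes had positive and 7 negative values, the median log2 fold change being 0.53. In their deposited table that pairs cKO replicate 2 with wild type replicate 1, 18 of 36 had positive and 18 negative values, the median being 0.01. At the series' thresholds of p below 0.05 and a log2 fold change above 1, the first table had Grin1 (1.12) and Grm3 (1.01), against 4.97% of its genes, and 0 below -1, against 4.64%. The second had 0 in either direction, against 1.44% above and 3.01% below.

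At an adjusted p below 0.05 alone, the first deposited table of the authors had 23 of these genes higher (20.0% of its genes) and 6 lower (25.2%), and the second 7 higher (5.04%) and 10 lower (8.26%). The 7 in the second table were Gria2, Grik3, Grik5, Grm2, Grm5, Homer1 and Shank1. A p from 1 library against 1 compares those libraries, not the genotypes. Across both deposited tables of the authors 14 genes were higher in each, 3 lower in each, and 18 had opposite signs. The signs matched in 48.6% of the 35 genes and in 53.0% of all genes tested. In the authors' deposited tables Grin2d was at 0.91 and -0.52, Grik4 at 0.95 and -0.45, and Grm7 at 0.53 and -0.83, whereas Grm2 was at 0.86 and 0.38, Grm3 at 1.01 and 0.35, and Shank1 at 0.86 and 0.19.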

How the data were processed

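RNA-seq of 2 wild-type and 2 H2A.Z.2 knockout libraries was used. Per the submitters' processing notes, the tools were TopHat2 2.0.12 with Bowtie2 2.2.3, and HTSeq 0.6.0, and the build mm9. Of the genes of the tables found in GENCODE M21 (GRCm38), 92.1% had the same position, and coordinates given here are on GRCm38. Whether reads were counted by strand is not given here, and an antisense partner's reads could not be separated from those of its gene. Per the file headers, the authors deposited 2 tables with raw counts per gene, a normalised value (a signal equal to CPM, the count scaled to the library total), a fold change as a ratio, its log2, and a p-value and adjusted p-value. Columns were matched to samples by header. The description labels of wild type replicate 4 and cKO replicate 2 name other tables than the headers do. Each table came with 1 emptied line, whose item is not reported here, and a few genes of the rule or lists enter counts and medians but are not reported one by one.

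Counts of genes listed in both tables entered edgeR 4.0.16 (quasi-likelihood test, TMM, R 4.3.3, two-sided, filterByExpr at a minimum count of 10, 5% FDR by Benjamini-Hochberg over all 16269 genes tested). The biological coefficient of variation was 0.194 on 2 residual degrees of freedom. Exon lengths, transcript GC and exon sequence came from GENCODE M21, promoters from RefSeq. The fit was checked on simulated counts with the same dispersion for all genes and no outlying library. That check does not cover a library that stands apart, as wild type replicate 4 did. Alternatives were DESeq2 1.42.0, other size factors and filters, leaving out each library, the deposited table as a block, raw reads or longest transcripts in the shares, and, chosen after seeing the data, scaling to neuron markers. All genes of the rule were to be named, with H2afv and, from each pathway list, up to 3 genes of smallest p and 2 of highest CPM. The genes, lists and markers were chosen with earlier results of these data known. Counting error is only part of the spread between libraries.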

Additional observations from a re-analysis of the deposited data

How the results depend on the processing

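DESeq2, its size factors, no filter, a filter on mean CPM and the deposited table as a block each called 0 of 35 receptor and scaffold genes, with medians of 0.23 to 0.25 and 26 of 35 higher. At the series' thresholds on the edgeR fit 88 genes and 0 of these 35 passed. Over the fits that left out 1 library, 0 to 1849 genes and 0 to 9 of the 35 passed 5% FDR. Without wild type replicate 1 it was 1849 genes and without cKO replicate 1 it was 1. Genes whose groups did not overlap numbered 21 to 26 of the 35 in these comparisons of 1 library against 2 (59.3% to 80.6% of all genes tested), against 13 with all 4 libraries. Scaled to neuron markers the median was -0.0064. The difference in the share of Dlg4 was 1.68 percentage points per kilobase and 0.231 in raw reads, and it was 0.54 without cKO replicate 1 and 2.81 without cKO replicate 2. Scaled by library totals Gria4 was at -0.0181. Leaving out 1 library gave log2 fold changes on both sides of 0 for 19 genes, among them Dlg1 (-0.35 to 0.10), Dlg3 (-0.0470 to 0.0336), Gria1 (-0.0707 to 0.70), Gria2 (-0.33 to 0.55), Gria3 (-0.16 to 0.40), Gria4 (-0.14 to 0.19), Grid1 (-0.0273 to 0.49), Grik1 (-0.53 to 0.41), Grik4 (-0.10 to 0.68), Grin2d (-0.29 to 0.72), Grin3a (-0.0763 to 0.55), Grin3b (-0.0292 to 0.93), Grm4 (-0.21 to 0.60), Grm7 (-0.50 to 0.25), Homer1 (-0.25 to 0.44), Homer2 (-0.29 to 0.24) and Homer3 (-0.27 to 0.0885). The cause of these shifts was not tested. No paired analysis was possible because the labels pair no libraries and the groups share fewer than 2 replicate numbers. The block by deposited table sets each cKO library against the wild-type library of its own table, and it put 920 genes and 7 of the 35 at an unadjusted p below 0.05, against 272 and 3 without it. Depth limits Grm8, Grin2a, Grin2c and Grin3b, with 17 to 55 reads per library, and also Grm3, with 47 to 102.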
